A study of Mus musculus with 6 samples.

Results

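The nuclear genes of oxidative phosphorylation were followed in RNAseq counts, the number of sequenced RNA fragments assigned to each gene, from osteoclasts of WT and *Slc37a2* KO mice. Members were chosen by gene symbol: *Nduf* (a, b, c, s or v with a number), *Sdha* to *Sdhd*, *Uqcr*, *Cyc1*, *Cox4* to *Cox8* and *Atp5*, leaving out 2 names that mark pseudogenes. This gave 87 of the 22601 genes in the count table, of which 80 passed a filter on low counts and were tested among 13483 genes. By complex there were 40 members in complex I, 4 in complex II, 9 in complex III, 17 in complex IV and 17 in ATP synthase. The 13 mRNAs that mitochondrial DNA encodes were part of the same definition. They are not analysed here, because 0 of them were found under their symbols in the table used, so every result below is about the nuclear genes of the system.

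There were 3 WT and 3 *Slc37a2* KO libraries, each headed by an animal number, an age of 11 weeks and the letter F. The sample labels describe osteoclasts grown for 5 days from bone marrow macrophages, with RANKL at 10 ng/ml and M-CSF at 2 ng/ml, whereas the paper's RNAseq methods describe RNA from whole long bones of male and female mice. KO mice carried the gene-trap tm2a allele of *Slc37a2*, a sugar phosphate transporter family gene, from 1 embryonic stem cell clone, and all mice were kept on the C57BL/6N background. The labels call the libraries biological replicates. *Slc37a2* stood at 1857, 2151 and 2440 CPM (counts scaled to a common library size) in WT and at 45.3, 32.1 and 36.9 CPM in KO libraries, which matches the genotype labels.

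Oxidative phosphorylation passes electrons from NADH and succinate along the respiratory chain in the inner mitochondrial membrane, and uses the proton gradient that results to make ATP. Complex I takes electrons from NADH, complex II (succinate dehydrogenase, also a TCA cycle enzyme) from succinate, complex III hands them to cytochrome c, and complex IV to oxygen. ATP synthase then lets protons back through its membrane ring to drive its catalytic head. Osteoclasts, the bone-resorbing cells that form by fusion of macrophage-lineage precursors, are rich in mitochondria, and *Ppargc1b* is known for its part in building them up.

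Many promoters of these genes are known to hold sites for NRF1 and for ETS factors such as GABP. To show what such sequences look like, upstream bases of 3 members from RefSeq (GRCm38.p6) are given below, cut to the longest stretch free of any exon in GENCODE M21. *Uqcr11* and *Cox6a1* were chosen as members with such matches and *Atp5b* as the most abundant member. They run 5′ to 3′ on the gene's own strand (minus for *Uqcr11* and *Cox6a1*, plus for *Atp5b*), and capitals mark the NRF1 letters GCGCANGCG or the ETS letters CCGGAAG, on either strand. The stretches are chr10:80406831-80407071 (*Uqcr11*), chr5:115348982-115349129 (*Cox6a1*) and chr10:128083057-128083272 (*Atp5b*).

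Uqcr11: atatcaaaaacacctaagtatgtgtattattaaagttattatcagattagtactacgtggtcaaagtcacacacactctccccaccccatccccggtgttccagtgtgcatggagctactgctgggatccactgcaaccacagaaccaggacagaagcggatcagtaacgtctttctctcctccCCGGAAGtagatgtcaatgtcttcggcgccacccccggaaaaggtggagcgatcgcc
Cox6a1: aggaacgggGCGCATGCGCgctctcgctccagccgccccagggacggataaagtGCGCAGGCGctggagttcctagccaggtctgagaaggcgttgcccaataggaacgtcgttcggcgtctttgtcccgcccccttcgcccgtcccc
Atp5b: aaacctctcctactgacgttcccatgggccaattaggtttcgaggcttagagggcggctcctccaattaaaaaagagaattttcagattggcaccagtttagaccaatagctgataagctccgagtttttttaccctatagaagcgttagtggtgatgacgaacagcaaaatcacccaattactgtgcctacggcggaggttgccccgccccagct

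*Uqcr11*, whose product is a small subunit of complex III, shows 1 ETS match. *Cox6a1*, the widely expressed form of a complex IV subunit, shows 3 NRF1 matches, a pair of which overlap on opposite strands because the letters are nearly palindromic. *Atp5b*, the catalytic beta subunit of ATP synthase, shows neither. Outside the printed stretches, *Uqcr11* also had an NRF1 match and *Cox6a1* an ETS match, both near the start. Of the 87 members, 68 matched a RefSeq promoter window (250 bases before and 50 after the start), in 73 windows. The NRF1 letters were in 28.8% of these windows, against 12.6% of the windows of all tested genes and 6.25% of all windows. The ETS letters were in 23.3%, against 16.9% and 8.86%. A YY1 sequence, AAGATGGCG, was in 9.59%, against 2.82% and 1.40%, and the TATA sequence TATAAA was in 9.59%, against 7.40% and 13.6%. Members with and without the NRF1 letters had median log2 fold changes, KO over WT, of 0.12 (20 members) and 0.14 (46 members). With and without the ETS letters these were 0.17 (17 members) and 0.13 (49 members).

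Levels were compared between genes as CPM per kilobase, averaged over the 6 libraries, for the 76 tested members with an annotated length. The length was the median over a gene's principal transcripts, or over all its transcripts where none was marked principal. *Atp5b* was the highest at 1372 CPM per kb, followed by *Cox4i1*, a regulatory subunit of complex IV, at 910 and by *Atp5g3*, one of the genes for the proton-carrying ring of ATP synthase, at 839. The median member stood at 118 CPM per kb in complex I, the largest complex, against 329 in complex II, 292 in complex III, 288 in complex IV and 270 in ATP synthase. Near-identical copies limit such levels. Of 80 members searched, 18 had at least 1 pseudogene with 95% identity over 150 bases or more. *Atp5l*, whose product is a membrane subunit of ATP synthase, had 8 such pseudogenes and stood at 5.46 CPM per kb, far under the median of its complex, and is uncertain.

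Several subunits have alternative genes. For the *Cox4* subunit, *Cox4i1* stood at 910 CPM per kb and *Cox4i2*, the form known from lung and from low oxygen, at 0.094. *Cox6a1* stood at 561 and the heart and muscle form *Cox6a2* at 0.595. *Cox6b1* stood at 569 and the testis form *Cox6b2* at 0.521. These pairs differed in the same direction in every library. *Cox7a2* stood at 297, the related supercomplex factor *Cox7a2l* at 223, and the heart and muscle form *Cox7a1* at 22.9, which is not at 0. *Ndufa4*, now counted as a complex IV subunit, stood at 636 and its hypoxia-linked relative *Ndufa4l2* at 0.055. The 3 genes for the same ring protein of ATP synthase were ordered *Atp5g3* (839), *Atp5g2* (83.4) and *Atp5g1* (49.6). That order held in each library, although *Atp5g1* had 1 near-identical pseudogene. In CPM not divided by length, *Atp5g1* stood above *Atp5g2*, at 133 and 48.9. The order of *Atp5g2* and *Atp5g1* thus rests on the lengths used, 586 and 2675.5 bases. *Cox7b* stood at 278 and *Cox8a* at 507 CPM per kb. Other forms of these last subunits are not analysed here.

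**Figure D1:**
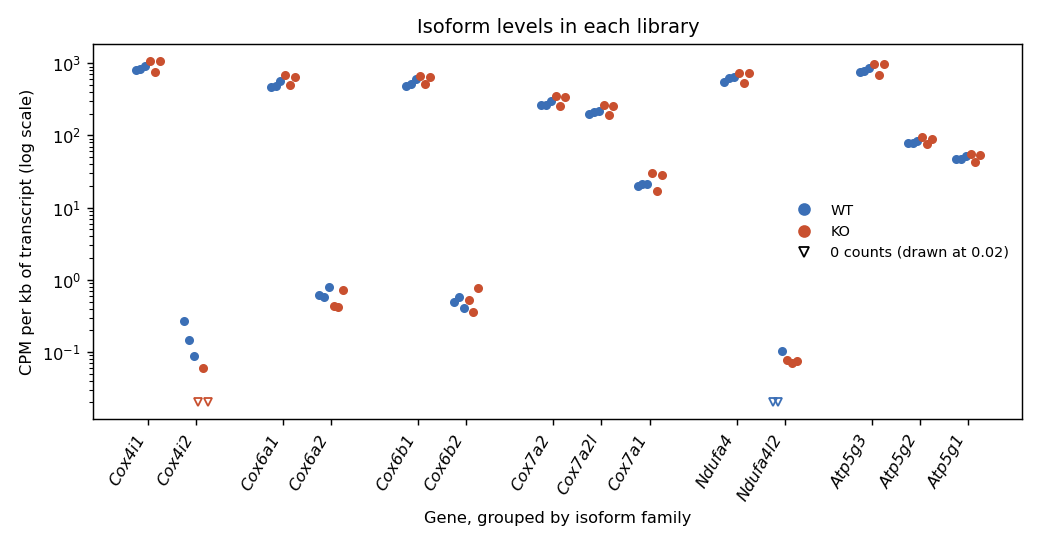
Levels of alternative subunit genes in each library, as CPM per kilobase of transcript on a log axis, for 3 WT (blue) and 3 KO (red) libraries, with libraries at 0 counts drawn as open triangles at 0.02. In the *Cox4*, *Cox6a*, *Cox6b* and *Ndufa4* families the lower form lies under 1 CPM per kb in all 6 libraries, while *Cox7a1* lies between 16.8 and 29.9.

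The members that the filter removed were *Cox4i2*, *Cox6b2*, *Ndufa4l2*, *Ndufa11b*, *Ndufb4b*, *Ndufb4c* and *Ndufs6b*, with 1 to 56 counts summed over all 6 libraries. *Cox4i2* had 8, 3 and 2 counts in WT and 0, 2 and 0 in KO libraries. These counts are too few to compare the genotypes. *Ndufa11b*, *Ndufb4c* and *Ndufs6b* are annotated as processed pseudogenes.

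The comparison of KO with WT libraries asked whether loss of *Slc37a2* was accompanied by a change in these genes. Of the 80 members tested, 77 had a fitted level above WT and 3 below it, with a median log2 fold change of 0.14, or 10.2%. In the quasi-likelihood test of edgeR, adjusted by Benjamini-Hochberg across the tested genes, 0 members were called at 0.05, while 0.00742% of tested genes were (1 gene, *Slc37a2*). The smallest adjusted p of a member in edgeR was 0.969. At an unadjusted p below 0.05 there was 1 member, *Ndufa1*, or 1.25% of members against 0.712% of tested genes. No member had all KO libraries above all WT libraries, which 1.5% of tested genes did, and no member had them all below, which 2.81% did. Over all tested genes the median log2 fold change was −0.023, with 43.8% above 0. Among the 7042 tested genes over 20 CPM it was 0.0021, with 51.0% above 0. The 80 members were not independent of each other, as the library values show, and the near-uniform direction is given as a count without a test.

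The precision of the fit bounds what could have been missed. The 95% interval of the log2 fold change lay within −1 to 1 for 79 of 80 members and within −0.5 to 0.5 for 52. The exception at the wider limit was *Cox6a2*, at 0.450 ± 0.0838 CPM in WT and 0.359 ± 0.118 CPM in KO libraries (SD, n = 3), with a log2 fold change of −0.34 and an interval of −1.17 to 0.49.

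**Figure D2:**
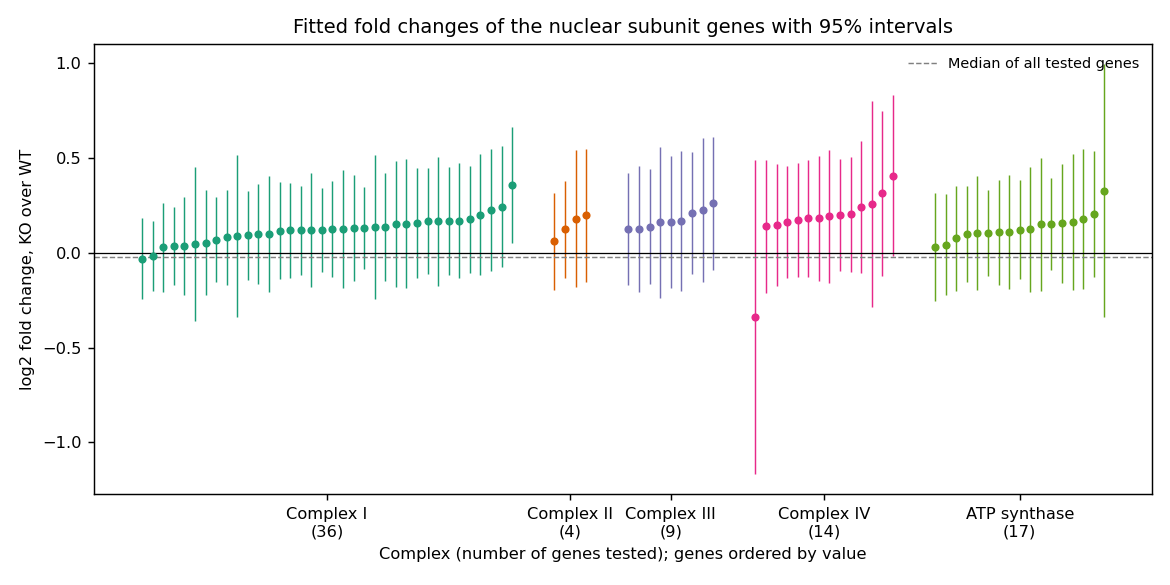
Fitted log2 fold change of KO over WT for each of the 80 tested members, ordered by value within its complex, with 95% intervals, and the median of all tested genes as a dashed line. All but 3 points lie above 0, and 1 interval (*Ndufa1*) lies wholly above 0.

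Between libraries the members moved as a block, and the block did not separate the genotypes. Each member's log2 CPM was set against its own mean over the 6 libraries, and the median over members was taken. This median was −0.12, −0.12 and 0.040 in WT libraries K090, L080 and L082, and 0.20, −0.18 and 0.19 in KO libraries K089, L078 and L081. KO libraries K089 and L081 were thus the highest, and KO library L078 the lowest of all 6. The SD of a member's own log2 level among libraries had a median over members of 0.10 within WT and 0.23 within KO, beside a median fitted log2 fold change of 0.14.

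Single members repeated this order. KO libraries K089 and L081 both lay above all other libraries for 71 of the 80 members, or 88.8%, against 19.0% of tested genes. KO library L078 was the lowest library for 58 members, or 72.5%, against 21.0% of tested genes. Among tested genes over 20 CPM these shares were 28.4% and 29.2%. The SD among KO libraries exceeded that among WT libraries for 79 of the 80, a count not made over all tested genes. Over all tested genes the median log2 SD was also larger within KO, at 0.15 against 0.13 within WT. Read as a share of all counts, the members together took 1.94%, 1.93% and 2.08% in WT and 2.21%, 1.89% and 2.23% in KO libraries. The mean shares differed by 0.129 percentage points (exact permutation test, two-sided, n = 3 per genotype, p = 0.4, where the smallest p possible is 0.1).

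Animal numbers began with K or L, a letter whose meaning is not given. Between the 2 libraries with K (1 WT, 1 KO) the median log2 difference over members was 0.32, and between the 4 with L (2 WT, 2 KO) it was 0.039. Without KO library L078 the median log2 fold change rose to 0.26, and 60 of 80 members (75%) reached an unadjusted p below 0.05, against 20.1% of the 13585 genes then tested. The smallest edgeR adjusted p of a member was then 0.227, so 0 members were called. By a chi-square measure of difference in counts, the KO libraries left in that fit, K089 and L081, were the most alike of all pairs. By the same measure KO library L078 was nearer to WT libraries L080 and K090 than to either of them. The 60 members thus rest on the KO pair that differed least, and how far this lowered their p-values was not tested. Without KO library K089 or without KO library L081 the median was 0.10, and no member reached an unadjusted p below 0.05.

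**Figure D3:**
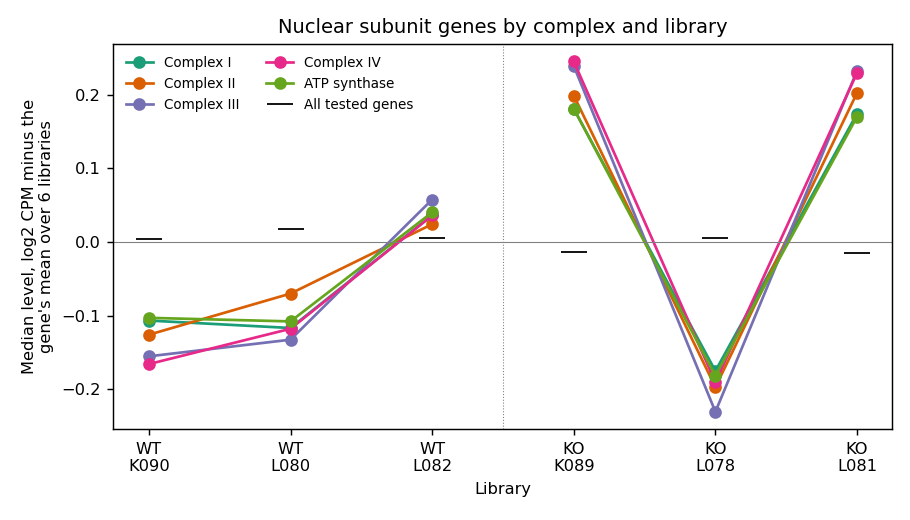
Median level of each complex's tested members in each library, as log2 CPM minus each gene's mean over the 6 libraries, with all tested genes as black dashes. Every complex is highest in KO libraries K089 and L081 and lowest in KO library L078. The median over all tested genes stays between −0.016 and 0.018, where scaling and centring hold it near 0. It does not show that other genes were stable.

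Several marker lists of cell types and cell states differed between the same libraries. The 15 osteoclast markers (among them *Acp5*, *Ctsk* and *Mmp9*) were all detected, and their summed level ran from 47935 to 68872 CPM in WT and from 53259 to 85532 CPM in KO libraries. Relative to each gene's mean, the list's median log2 was −0.37, −0.11 and 0.062 in WT libraries K090, L080 and L082, and 0.42, −0.30 and 0.27 in KO libraries K089, L078 and L081. The median of the 12 macrophage markers stood at 1.15, 0.69 and −0.80 in WT and −1.34, 0.96 and −0.78 in KO libraries, and their summed level ran from 5216 to 9028 CPM in WT and from 5190 to 8600 CPM in KO libraries. The list was not uniform. KO library K089 was the lowest library for *Adgre1* and *Mrc1* but the highest for *Cd68* and *Csf1r*, and by fold change 9 of the 12 lay below WT and 3 above, none of them called. Interferon response genes stood at 1.47, 0.53 and −0.98 in WT and −1.35, 0.83 and −0.60 in KO libraries. Proliferation genes stood at 0.41, −0.011 and 0.025 in WT and −0.53, 0.38 and −0.27 in KO libraries, and KO K089 was the lowest library for 12 of 12. Stromal markers stood at −0.32, 0.22 and 0.64 in WT and −0.49, 0.70 and −0.64 in KO libraries. They were likewise low in KO K089 and L081 and high in KO L078, but among WT libraries they were lowest in K090. By fold change all 15 osteoclast markers lay above WT, with a median log2 fold change of 0.28. All 14 interferon response, 12 proliferation and 11 tested stromal genes lay below WT, with medians of −0.88, −0.25 and −0.32. None of these was called. Red cell, neutrophil and skeletal muscle markers summed to at most 0.0674, 1.40 and 6.16 CPM in any library. The part of cell makeup in the members' levels was not tested, and in bulk RNA fewer cells of a type and less RNA per cell cannot be told apart.

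Complex I, which oxidises NADH, had 36 tested members with a median log2 fold change of 0.12, of which 34 were above 0. *Ndufa1*, an X-linked accessory subunit needed for assembly of the membrane arm (chrX:37187588-37191163, GRCm38), had the largest difference in the complex. It stood at 58.7, 63.3 and 66.7 CPM in WT libraries K090, L080 and L082, and at 85.9, 66.1 and 90.04 CPM in KO libraries K089, L078 and L081. KO library L078 fell within the WT range, so the groups overlapped. The log2 fold change was 0.36 (SE 0.13, 95% interval 0.054 to 0.66, unadjusted p = 0.0277, edgeR adjusted p = 0.969). Its unadjusted p was not below 0.05 when WT K090, WT L080, KO K089 or KO L081 was left out.

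*Ndufs4*, an accessory subunit of the electron input arm, had the lowest fold change in the complex, at 73.6, 75.3 and 75.2 CPM in WT and 78.2, 63.9 and 77.3 CPM in KO libraries. Its log2 fold change was −0.031 (SE 0.088), a difference that KO library L078 decided, since it was 0.057 without it. *Ndufa8*, an accessory subunit with twin disulfide motifs, was the other complex I member below 0, at −0.017 (SE 0.077). Its sign turned with DESeq2's scaling (0.00126).

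Complex II, whose 4 subunits are all nuclear, had a median log2 fold change of 0.15, with all 4 above 0. *Sdha*, the flavoprotein that oxidises succinate, was the highest by CPM and had the largest difference, at 970, 1034 and 1137 CPM in WT and 1333, 969 and 1300 CPM in KO libraries. Its log2 fold change was 0.20 (SE 0.15). *Sdhd*, a membrane anchor, had the smallest difference, at 371 ± 11.8 CPM in WT and 388 ± 49.2 CPM in KO libraries (SD, n = 3; log2 fold change 0.061, SE 0.11). *Sdhb*, the iron-sulfur subunit, and *Sdhc*, the other anchor, lay between them, at 0.18 and 0.12. None of the 4 differed beyond the spread among libraries.

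Complex III, which passes electrons from ubiquinol to cytochrome c, had 9 tested members, all above 0, with a median of 0.16. *Uqcrc2*, a large core protein and the most abundant member, stood at 489, 502 and 573 CPM in WT and 653, 461 and 645 CPM in KO libraries. *Uqcr11* had the largest difference, at 135, 143 and 163 CPM in WT and 198, 140 and 190 CPM in KO libraries, with a log2 fold change of 0.26 (SE 0.15). *Uqcrb*, which binds near the quinone pocket, had the smallest, at 0.12 (SE 0.12). In each the KO library L078 lay among or below the WT libraries.

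Complex IV, cytochrome c oxidase, had 14 tested members, 13 of them above 0, and a median of 0.19, the highest of the 5 complexes. *Cox8a*, a small membrane subunit (chr19:7215153-7217616, GRCm38), had the largest difference of all members. It stood at 243, 194 and 281 CPM in WT and 350, 257 and 346 CPM in KO libraries, and KO L078 lay between the WT libraries. Its log2 fold change was 0.41 (SE 0.18, 95% interval −0.017 to 0.83, unadjusted p = 0.0571 and edgeR adjusted p = 0.969). WT library L080 was the lowest of the 6.

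*Cox4i1*, the most abundant complex IV member, stood at 612, 628 and 684 CPM in WT and 810, 581 and 809 CPM in KO libraries (log2 fold change 0.19, SE 0.15). *Cox6a1* had a log2 fold change of 0.24 (SE 0.14), *Cox6b1* 0.18 (SE 0.13), *Cox7a2* 0.18 (SE 0.14), *Cox7a2l* 0.18 (SE 0.12), *Cox7b* 0.15 (SE 0.13) and *Ndufa4* 0.14 (SE 0.15). The heart and muscle form *Cox7a1* stood at 8.17 ± 0.291 CPM in WT and 9.80 ± 2.78 CPM in KO libraries (SD, n = 3). Its log2 fold change, 0.26 (SE 0.23), was less precise than those of the abundant members.

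ATP synthase had 17 tested members, all above 0, with a median of 0.12. *Atp5b* (chr10:128083273-128090391, GRCm38) stood at 2362, 2402 and 2676 CPM in WT and 3062, 2265 and 3000 CPM in KO libraries. KO L078 was again the lowest of the 6 libraries, and the log2 fold change was 0.16 (SE 0.15). *Atp5l* had the largest difference, 0.33 (SE 0.28), but at 2.63 ± 0.755 CPM in WT and 3.31 ± 0.740 CPM in KO libraries (SD, n = 3) and with the copies named above. *Atp5e*, the epsilon subunit of the central stalk, had the smallest, at 112 ± 4.40 CPM in WT and 115 ± 17.5 CPM in KO libraries (log2 fold change 0.030, SE 0.12). The ring genes *Atp5g1*, *Atp5g2* and *Atp5g3* had log2 fold changes of 0.043, 0.10 and 0.15, with SEs of 0.11, 0.095 and 0.15.

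**Figure D4:**
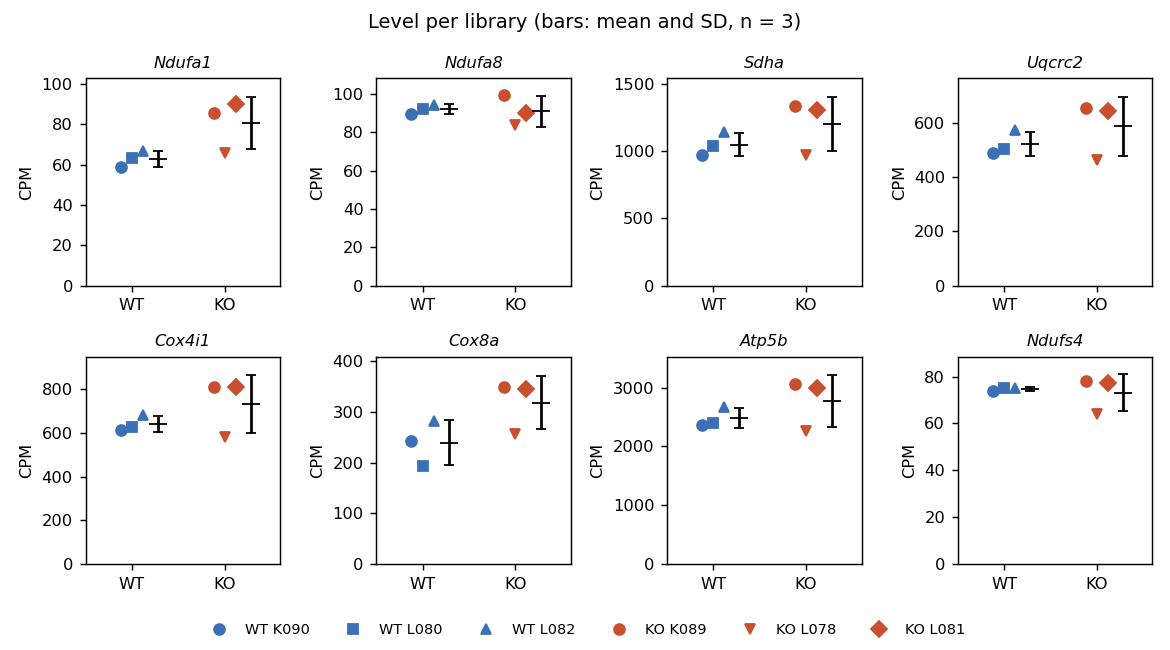
CPM of 8 members in each library on axes from 0, with WT in blue and KO in red, a marker shape per animal, and the mean with its SD (n = 3) in black. In 7 panels KO K089 and L081 stand above the WT libraries, while KO L078 stands among or below them, and in the panel of *Ndufa8* KO L081 lies within the WT range.

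Other genes of the pathway were read from fixed lists, none of which held a gene with an adjusted p below 0.05 or an unadjusted p below 0.05. Genes of the TCA cycle, which feeds electrons to the chain, were listed with pyruvate dehydrogenase and pyruvate carrier genes. These 20, called TCA cycle genes here, were nearest to the members. All 20 lay above 0, with a median log2 fold change of 0.10. By library their median was −0.11, −0.095 and 0.070 in WT and 0.19, −0.19 and 0.13 in KO libraries, again highest in K089 and L081 and lowest in L078. *Mdh2*, malate dehydrogenase, had the largest difference (0.23, SE 0.17) and *Pdhx*, a pyruvate dehydrogenase component, the smallest (0.028, SE 0.13).

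Assembly factors, which build the complexes but are not part of them, had a median of 0.037, with 35 of 50 above 0. Their range ran from *Lyrm7*, a complex III assembly factor (−0.16), to *Ndufaf8*, a complex I assembly factor (0.26). Mitochondrial ribosomal proteins, which translate the mitochondrially encoded subunits, had a median of 0.037, with 53 of 78 above 0, from *Mrps6* (−0.089) to *Mrpl52* (0.26). A list of electron carriers, mitochondrial membrane transporters, ubiquinone synthesis genes and related enzymes had a median of 0.076, with 16 of 23 above 0. Its range ran from *Coq4* (−0.14), of ubiquinone synthesis, to *Etfdh* (0.28), which passes electrons from fat oxidation to ubiquinone. *Cycs*, cytochrome c itself, stood at 115, 97.8 and 134 CPM in WT and 141, 106 and 153 CPM in KO libraries (0.21, SE 0.17). A pair of members under other names, *Ndufab1* and the ATP synthase inhibitor *Atpif1*, had log2 fold changes of 0.13 and 0.027.

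Genes that maintain and express mitochondrial DNA had a median of −0.015, with 15 of 32 above 0, from *Tfb1m* (−0.14) to *Mterf2* (0.095). *Tfam*, which packages mitochondrial DNA, stood at 35.1, 31.7 and 34.7 CPM in WT and 28.4, 33.4 and 34.3 CPM in KO libraries. *Polrmt*, the mitochondrial RNA polymerase, stood at 35.7, 40.6 and 34.3 CPM in WT and 37.5, 33.6 and 35.3 CPM in KO libraries. For both the groups overlapped, and the lowest library was KO K089 for *Tfam* and KO L078 for *Polrmt*. Transcriptional regulators had a median of −0.051, with 5 of 11 above 0, from *Pparg* (−0.39) to *Ppard* (0.22). *Ppargc1b*, the coactivator of mitochondrial biogenesis in osteoclasts, stood at 127, 139 and 132 CPM in WT and 168, 122 and 142 CPM in KO libraries, with a log2 fold change of 0.12 (SE 0.12, edgeR adjusted p = 0.969). KO K089 was its highest library and KO L078 its lowest.

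**Figure D5:**
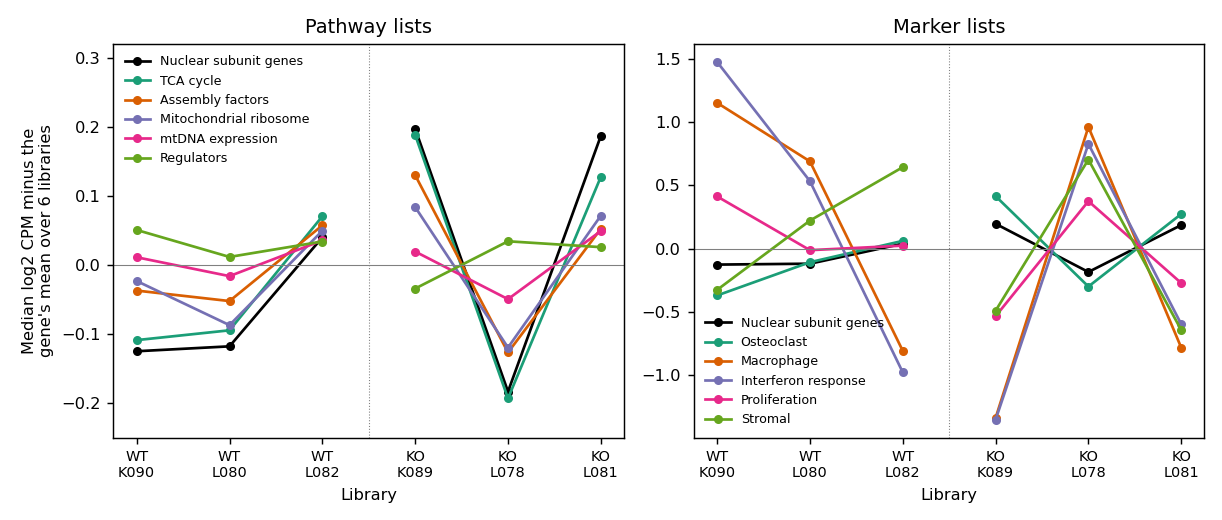
Median log2 CPM minus each gene's mean over the 6 libraries, for the tested nuclear members and 5 pathway lists (left) and for the members and 5 marker lists (right), by library; the vertical scales of the panels differ. TCA cycle genes lie near the members in each library, osteoclast markers are likewise highest in KO K089 and L081, and the medians of macrophage and interferon response genes are lowest in KO K089 and highest in WT K090, although 2 of the 12 macrophage markers were highest in KO K089.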

How the data were processed

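RNAseq reads were sequenced on an Illumina NovaSeq. Per the submitters' processing notes, bcl2fastq 2.20.0.422, edgeR 3.30.3 and the build mm10 were used. For the counting tool, aligner and annotation, the name is not given in the sources used here. Whole-number counts per gene symbol were deposited by the authors for 22601 genes and 6 libraries, not normalized. The authors' own edgeR columns hold log2 fold changes and mean log2 CPM, a likelihood ratio score, and p-values with FDR; these deposited columns were not used, nor was a shorter list of the first rows. Library columns were assigned to a genotype from their headings.

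Totals ran from 27552183 to 42522292 counts per library. In R 4.3.3, genes were filtered with filterByExpr (minimum count 10), scaled by TMM (factors 0.931 to 1.06) and tested with edgeR 4.0.16 (glmQLFit, glmQLFTest, genotype as the term), with Benjamini-Hochberg adjustment over 13483 genes. The steps were tested on simulated counts of genes that varied independently, with changes larger than those of the members. That check does not bear on shared differences as small as theirs. DESeq2 1.42.0, other scalings, filters and tests, a term for the letter of the animal number, and each library left out were alternatives. Shares were compared with an exact permutation test over libraries. Log2 levels by library used log2(CPM + 0.5), and precision is that of 3 libraries per genotype. The labels call them biological replicates; whether they were separate cultures is not stated beyond the animal numbers.

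Coordinates and transcript lengths came from GENCODE M21 (GRCm38), in which 82 of 87 members matched, copies from BLAST+ 2.17.0 on its transcripts, and promoters from RefSeq. Members and lists were chosen with earlier results of these data known. Genes named are the members at an unadjusted p below 0.05, the highest, most raised and most lowered member of each complex, isoform families, members removed by the filter, and the extremes of each list, with *Ppargc1b*, *Tfam*, *Polrmt* and *Cycs*. *Sdhb* and *Sdhc* were added to complete complex II, and 1 gene that this rule names is not reported here. Reads from genes that overlap or have near-identical copies may be split between them.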

Additional observations from a re-analysis of the deposited data

How the results depend on the processing

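No member was called at an adjusted p below 0.05 under any alternative run. The number of members at an unadjusted p below 0.05, 1 as reported, was 2 with upper quartile scaling, 2 with the likelihood ratio test, 2 in DESeq2 and 3 without the filter, where *Cox4i2*, with few counts, was one of them. With single libraries left out it ran from 0 to 60, the highest without KO library L078. The median over members ran from 0.10 to 0.26 with single libraries left out, and in no alternative run did it or the median of a complex turn negative. *Ndufa8* turned positive with DESeq2's size factors (0.00126) and Wald test (7.25e-04). Over single libraries left out, where each of these changed sign, log2 fold changes ran from −0.0582 to 0.0572 (*Ndufs4*), −0.0624 to 0.0398 (*Ndufa8*), −0.0291 to 0.151 (*Atp5e*), −0.00465 to 0.149 (*Atp5g1*), −0.124 to 0.0234 (*Tfam*), −0.0785 to 0.0196 (*Polrmt*), −0.0129 to 0.282 (*Mterf2*), −0.0392 to 0.138 (*Pdhx*) and −0.0286 to 0.0848 (*Atpif1*). Of 866 repeated values, 828 kept their direction and call or moved by less than the spread between libraries. No paired analysis was possible because the column headings carry no replicate number. The planned results on mitochondrially encoded mRNAs, and the share without the highest of them, were not run. With 3 libraries per genotype, small shared differences such as that of the members lie within the spread among KO libraries.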

Other observations

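A pair of mitochondrial ribosomal RNAs were in the table used here, and their share was looked at after the data were seen. The table also held 13 mitochondrial tRNA genes, whose order of libraries varied. For example, *TrnL1* was highest in KO library L081 but *TrnI* in WT library L080. *mt-Rnr1* stood at 325, 343 and 357 CPM in WT libraries K090, L080 and L082, and at 423, 280 and 432 CPM in KO libraries K089, L078 and L081. *mt-Rnr2* stood at 532, 791 and 1050 CPM in WT and 882, 504 and 1302 CPM in KO libraries. Both were lowest in KO library L078 and highest in KO library L081. Together they took 0.0892%, 0.116% and 0.140% of counts in WT and 0.121%, 0.0831% and 0.165% in KO libraries (difference 0.00821 percentage points, exact permutation test, two-sided, n = 3 per genotype, p = 0.9). With single libraries left out this difference ran from −0.0128 to 0.0283 percentage points. The depth of ribosomal RNA depends on how it was removed from each library, which is not given in the sources used here.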
